A study of Homo sapiens with 36 samples.

Results

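The genes described here are the human zinc transporters and metallothioneins, the proteins that move zinc across membranes and store it in the cytosol. They were chosen by symbol, as every gene of the SLC30A and SLC39A families with a number, every MT1 gene with a letter, and MT2A, MT3 and MTF1. This gave 36 genes of the 26475 symbols in the count table, namely 10 SLC30A genes, 14 SLC39A genes, 11 metallothioneins and MTF1. Of the 36, 21 had enough counts to be tested in all 4 experiments, 9 in some and 6 in none. Poly-A RNA was sequenced from 3 cancer cell lines in 4 experiments of 9 libraries each, 36 libraries in all.

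In the hairpin experiments, cells of the basal-like breast cancer line MDA-MB-468, the pancreatic carcinoma line PANC-1 or the colorectal adenocarcinoma line WiDr expressed targeting hairpin 1, targeting hairpin 2 or, as the control, a non-silencing hairpin, each from the lentiviral vector pGIPZ. In the guide experiment, WiDr cells carried targeting CRISPR guide 1, targeting guide 2 or a non-targeting guide named NT-1 (the control). Each of the 12 groups held 3 libraries, described by the design text as biological replicates. All cells grew in DMEM with fetal bovine serum, and the protocols name no added metal or chelator. The sources used here do not give whether the modified cells were pools or clones. For PANC-1 the text speaks of libraries labelled hairpin 2, because a check of the hairpins' target went against that label: its depth-scaled count was below every control library in 0 of these 3 libraries, and in all 3 of each other construct group. For 4 of the 6 targeting guide libraries, another label field names the other guide than the title does, and the titles were used.

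Cells hold almost all of their zinc bound to protein. SLC30A proteins (ZnT) carry zinc out of the cytosol, across the plasma membrane or into organelles, and SLC39A proteins (ZIP) carry it into the cytosol from outside or from organelles. Metallothioneins are small cysteine-rich proteins that bind zinc, copper and cadmium. The transcription factor MTF1 senses free zinc and switches on metallothionein genes and SLC30A1 through metal response elements, short DNA motifs near the gene start. Metallothionein genes also respond to glucocorticoids and oxidative stress.

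The promoter of MT2A, the main metallothionein of many human cells, is printed with those of MT1X and SLC30A1, because these genes are the textbook targets of MTF1 and were followed in every experiment. Each sequence is the 250 bases before the gene start in RefSeq (GRCh38.p14), read 5′ to 3′ on the gene's strand. Capitals mark the metal response element core, searched on both strands as TGCACNC and TGCGCNC. MT2A is on the plus strand at chr16:56608334-56608583, MT1X on the plus strand at chr16:56682220-56682469, and SLC30A1 on the minus strand at chr1:211579162-211579411.
MT2A: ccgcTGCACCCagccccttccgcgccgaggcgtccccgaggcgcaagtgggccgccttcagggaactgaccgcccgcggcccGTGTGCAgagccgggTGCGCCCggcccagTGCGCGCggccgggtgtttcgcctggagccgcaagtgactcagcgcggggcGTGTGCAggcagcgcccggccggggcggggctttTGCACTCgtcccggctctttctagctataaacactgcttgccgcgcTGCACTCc
MT1X: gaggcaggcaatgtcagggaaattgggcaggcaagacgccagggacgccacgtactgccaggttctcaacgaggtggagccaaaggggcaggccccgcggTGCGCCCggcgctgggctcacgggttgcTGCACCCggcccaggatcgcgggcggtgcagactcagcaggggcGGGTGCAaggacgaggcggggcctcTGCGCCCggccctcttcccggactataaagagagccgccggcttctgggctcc
SLC30A1: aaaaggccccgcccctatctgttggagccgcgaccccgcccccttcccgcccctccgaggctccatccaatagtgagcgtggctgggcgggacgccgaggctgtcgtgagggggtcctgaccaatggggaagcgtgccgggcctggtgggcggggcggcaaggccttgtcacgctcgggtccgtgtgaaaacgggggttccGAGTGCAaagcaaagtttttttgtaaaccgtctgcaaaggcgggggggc

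The MT2A window held 7 matches, the MT1X window 4 and the SLC30A1 window 1. Of 35116 promoter windows of the same length, 24.8% held at least 1 match, 0.37% at least 4 and 0.0313% at least 7. MT1H, a metallothionein with at most 17 counts in any library, had 8. The windows of MTF1 itself, SLC39A7 and SLC39A10 held none of these letters. Of the 36 genes, 26 had a window in RefSeq's table and 14 of those had a match in one.

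Library totals were 28371127 to 49237322 expected counts. Levels are given in CPM scaled by TMM within an experiment, and levels compared between genes or lines are per kilobase of the longest transcript (RPKM), scaled over all 36 libraries. A gene is said to have risen or fallen when edgeR's quasi-likelihood test gave an adjusted p (Benjamini-Hochberg over all genes tested) below 0.05. Control libraries marked the lines by KRT5 and EGFR in MDA-MB-468 (1652 and 1169 CPM on average, EGFR ranging from 444 to 1982 CPM), VIM and CDH2 in PANC-1 (3996 and 92.9 CPM), and LGALS4 and VIL1 in WiDr (419.6 and 53.5 CPM with hairpins). KRT7 was low in PANC-1 (7.45 CPM), and CDX2, CDX1 and CDH17 were low in WiDr (2.90, 0.777 and 0.459 CPM). The leukocyte genes PTPRC and CD3E and the fibroblast gene DCN stood at 0 to 0.03 CPM on average in PANC-1 and WiDr hairpin controls and at 0 to 0.05 CPM in MDA-MB-468 controls, while LYZ reached 1509.5 CPM in WiDr hairpin controls. Summed over all 4 leukocyte genes, hairpin controls had 74.4 to 89.5 CPM in PANC-1, 2.01 to 3.25 CPM in MDA-MB-468 and 1499 to 1527 CPM in WiDr. Over all 4 fibroblast genes they had 11.3 to 21.0, 8.69 to 11.3 and 3.60 to 4.57 CPM in the same order.

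Libraries of 1 group differed by transcript length in MDA-MB-468 and PANC-1. Against the other 2 control libraries, PANC-1 control replicate 1 had a median log2 difference of -0.60 over 1743 genes with transcripts under 1500 bases and 0.47 over 2410 genes with transcripts over 6000 bases. MDA-MB-468 control replicate 1 had 0.47 for short and -0.43 for long transcripts. Other libraries were also shifted against the rest of their group. The short and long medians were 0.38 and -0.38 in PANC-1 hairpin 1 replicate 1, and -0.36 and 0.38 in MDA-MB-468 control replicate 2. With MDA-MB-468 hairpin 2 they were -0.38 and 0.40 in replicate 2, and 0.34 and -0.35 in replicate 3. The same medians lay between -0.19 and 0.27 in the WiDr hairpin libraries and between -0.14 and 0.14 in the guide libraries. All 11 metallothionein transcripts are under 1500 bases, while those of MTF1, SLC30A4, SLC30A7 and SLC30A9 are over 6000. The part of this in the differences of these genes was not tested. The refits given in full below leave out control replicate 1 of a line and keep its other shifted libraries. Ribosomal RNA genes took 0.838% to 2.60% of counts in the PANC-1 libraries with a hairpin label, against 4.61% to 9.60% in PANC-1 controls, and 5.38% to 10.2% with WiDr hairpin 2, against 1.27% to 2.71% in the other 6 WiDr hairpin libraries.

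The 3 lines differed in which metallothionein they used. In control libraries MT2A stood at 323 ± 87.1 RPKM in PANC-1, 227 ± 59.6 RPKM in MDA-MB-468, 24.1 ± 2.35 RPKM in WiDr with the hairpin control and 33.7 ± 6.14 RPKM with the guide control (SD, n = 3 each). The difference between PANC-1 and MDA-MB-468 was smaller than the sum of their SDs, and both were above WiDr. MT1X was highest in MDA-MB-468 at 116 ± 22.0 RPKM, against 25.4 ± 8.39 in PANC-1 and 6.05 ± 0.626 and 8.85 ± 1.29 in the WiDr controls. MT1E had 130.5 ± 48.3 RPKM in PANC-1 and 52.6 ± 2.94 and 61.3 ± 11.6 RPKM in WiDr, but only 0 to 10 counts in the 9 MDA-MB-468 libraries.

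As a share of all metallothionein counts, MT2A made up 71.1% ± 1.24 in MDA-MB-468 controls, 59.6% ± 2.43 in PANC-1 controls, 30.3% ± 0.907 in WiDr hairpin controls and 32.5% ± 0.296 in WiDr guide controls. MT1E made up 61.4% ± 0.935 and 54.7% ± 0.297 in the WiDr controls. MT1L, which GENCODE classes as a transcribed pseudogene, took 12.7% ± 0.522 of the PANC-1 control counts. In MDA-MB-468, MT1A and MT1L had 0 counts in all 9 libraries, which allows up to 3 counts, or 0.0772 to 0.0969 CPM, per library and covers counting error only. MT1G reached 1 CPM in WiDr only. The metallothionein genes lie within one cluster on chromosome 16 (56589074 to 56684196, GRCh38) and have similar coding sequences, so the split of reads among MT1 genes by the counting software is uncertain.

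**Figure D1:**
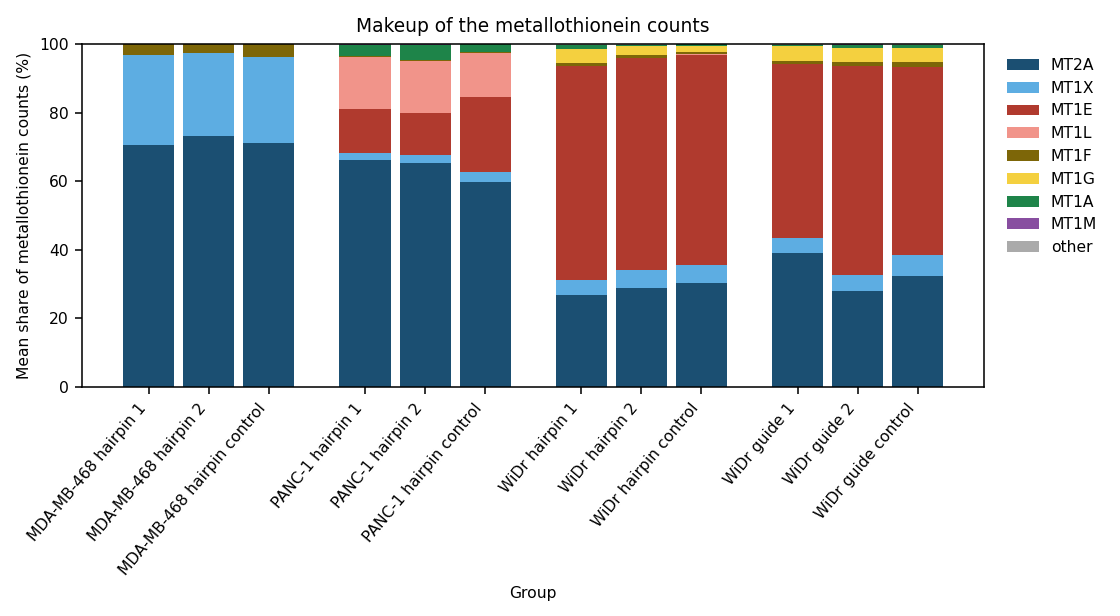
Mean share of all metallothionein counts (%) taken by each gene, stacked to 100%, in the 12 groups of 3 libraries. MT2A and MT1X fill almost all of MDA-MB-468, MT1E and MT1L appear in PANC-1, and MT1E is the main gene in WiDr.

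Among the transporters, the plasma membrane importer SLC39A1 and the endoplasmic reticulum transporter SLC39A7 had the highest levels in every control group. SLC39A7 stood at 106 ± 9.25 RPKM in MDA-MB-468, 89.2 ± 1.68 and 68.8 ± 1.52 RPKM in the WiDr hairpin and guide controls and 57.6 ± 3.43 RPKM in PANC-1. SLC39A1 stood at 72.1 ± 9.21, 70.5 ± 9.79, 54.0 ± 2.15 and 45.4 ± 1.33 RPKM in MDA-MB-468, PANC-1, WiDr hairpin and WiDr guide controls. Of the exporters, SLC30A5 led in PANC-1 (22.5 ± 0.974 RPKM), MDA-MB-468 (18.1 ± 1.37 RPKM) and WiDr hairpin controls (24.1 ± 2.29 RPKM), and SLC30A9, which acts in mitochondria, in the WiDr guide controls (23.3 ± 0.191 RPKM). SLC39A8, an importer of zinc, manganese and cadmium, had 7.68 ± 1.08 RPKM in MDA-MB-468 and 0.110 ± 0.0278 RPKM in PANC-1. SLC39A14, its close relative, was lowest in MDA-MB-468 at 7.42 ± 1.13 RPKM, against 32.3 ± 4.79, 37.9 ± 0.537 and 25.8 ± 0.338 RPKM in PANC-1, WiDr hairpin and WiDr guide controls.

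In MDA-MB-468, where each hairpin was compared with the non-silencing hairpin, SLC39A8 was the 1 member that rose, and it rose with both hairpins. It had 44.0, 46.8 and 45.8 CPM with hairpin 1, 50.8, 54.7 and 49.8 CPM with hairpin 2, and 27.8, 35.3 and 34.3 CPM in control libraries. Every library with a targeting hairpin was above every control library (log2 fold changes 0.49 (SE 0.0987, adjusted p = 0.0394) and 0.67 (SE 0.0989, adjusted p = 0.00772)). In bulk RNA, fewer cells of a type and less RNA per cell cannot be told apart. The 24 members tested held 1 rise and 0 falls with each hairpin (4.17%), beside 2.27% of 14641 genes called with hairpin 1 (1.24% higher and 1.03% lower) and 3.49% with hairpin 2 (1.69% higher and 1.8% lower). With both hairpins 0.744% of all genes rose and 0.567% fell. With the 3 libraries of the other hairpin left out of the fit no member passed (edgeR, with 5 and 4 members at an unadjusted p under 0.05), while DESeq2 called 3 with each hairpin. Without any of 6 libraries (control replicate 3, hairpin 1 replicates 1 to 3, hairpin 2 replicates 1 and 3) the hairpin 1 call was lost, with log2 fold changes of 0.39 to 0.55 over all left-out libraries.

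MT2A, MT1X, SLC30A1, SLC39A10 and MTF1, which were followed in every experiment, did not pass in MDA-MB-468. MT2A had 220.5, 189 and 209 CPM with hairpin 1, 262, 185 and 286 CPM with hairpin 2, and 249, 153 and 162 CPM in control libraries. Control replicate 1 was near the top of the whole range and the other 2 control libraries at its foot (log2 fold changes 0.13 (SE 0.209, adjusted p = 0.890) and 0.38 (SE 0.209, adjusted p = 0.459)). MT1X followed MT2A, with 78.0, 69.3 and 83.1 CPM with hairpin 1, 87.6, 62.3 and 91.6 CPM with hairpin 2, and 81.5, 56.1 and 59.9 CPM in control libraries (log2 fold changes 0.22 (SE 0.179, adjusted p = 0.735) and 0.29 (SE 0.179, adjusted p = 0.530)). Summed over all MT1 genes the log2 fold changes were 0.19 (SE 0.184, adjusted p = 0.793) and 0.24 (SE 0.184, adjusted p = 0.663).

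SLC30A1, the plasma membrane zinc exporter (chromosome 1, 211571568 to 211578742), had 18.8, 17.3 and 14.2 CPM with hairpin 1, 14.5, 22.6 and 9.96 CPM with hairpin 2, and 7.49, 18.7 and 15.4 CPM in control libraries. Its lowest value was that of control replicate 1, and the groups overlapped (log2 fold changes 0.27 (SE 0.358, adjusted p = 0.859) and 0.17 (SE 0.359, adjusted p = 0.948)). SLC39A10, a plasma membrane importer that MTF1 represses in mouse cells, had 16.005, 17.8 and 14.2 CPM with hairpin 1, 14.9, 19.1 and 10.99 CPM with hairpin 2, and 7.79, 15.5 and 12.5 CPM in control libraries. Here too control replicate 1 was lowest (log2 fold changes 0.42 (SE 0.262, adjusted p = 0.611) and 0.33 (SE 0.262, adjusted p = 0.690)). MTF1 (chromosome 1, 37809567 to 37859620) had 85.9, 79.8 and 78.1 CPM with hairpin 1, 84.5, 103 and 68.2 CPM with hairpin 2, and 61.8, 90.5 and 74.1 CPM in control libraries, and the groups overlapped (log2 fold changes 0.11 (SE 0.168, adjusted p = 0.890) and 0.17 (SE 0.168, adjusted p = 0.773)).

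Without control replicate 1 in the fit, 1 member was called with either hairpin in MDA-MB-468, and several values of genes that did not pass moved. For hairpins 1 and 2 SLC30A1 was then at -0.028 (adjusted p = 0.987) and -0.13 (adjusted p = 0.836), both below 0. SLC39A10 was at 0.19 (adjusted p = 0.845) and 0.093 (adjusted p = 0.837). MTF1 was at -0.019 (adjusted p = 0.982) and 0.048 (adjusted p = 0.893), and its hairpin 1 value thus changed sign. The metallothioneins moved up, MT2A to 0.39 (adjusted p = 0.370) and 0.63 (adjusted p = 0.0826) and MT1X to 0.40 (adjusted p = 0.319) and 0.47 (adjusted p = 0.163). The summed epithelial markers were 2597 to 2696 CPM with hairpin 1, 2362 to 2997 CPM with hairpin 2 and 2964 to 4196 CPM in controls, and their part in these values was not tested.

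The largest fold changes in MDA-MB-468 that did not pass were those of low genes, named after their values were seen. SLC39A2, an importer that passed the filter on low counts in this line only, had 2.65, 3.998 and 3.26 CPM with hairpin 1, 2.97, 2.04 and 3.36 CPM with hairpin 2, and 1.89, 1.45 and 1.47 CPM in control libraries (log2 fold changes 1.04 (SE 0.235, adjusted p = 0.0643) and 0.80 (SE 0.236, adjusted p = 0.121)). SLC30A3, which loads synaptic vesicles with zinc, had 0.306, 0.176 and 0.144 CPM with hairpin 1, 0.291, 0.414 and 0.258 CPM with hairpin 2, and 1.56, 0.579 and 0.575 CPM in control libraries (log2 fold changes -2.08 (SE 0.5004, adjusted p = 0.0800) and -1.49 (SE 0.478, adjusted p = 0.151)). For both genes the libraries with a targeting hairpin did not overlap the controls. Without control replicate 1, SLC30A3 was at -1.43 (adjusted p = 0.114) with hairpin 1 and -0.85 (adjusted p = 0.262) with hairpin 2. Between the hairpins no member passed in MDA-MB-468 (0 of 24 with edgeR and with DESeq2, 1 at an unadjusted p under 0.05), beside 0.437% of all genes (0.191% higher and 0.246% lower).

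**Figure D2:**
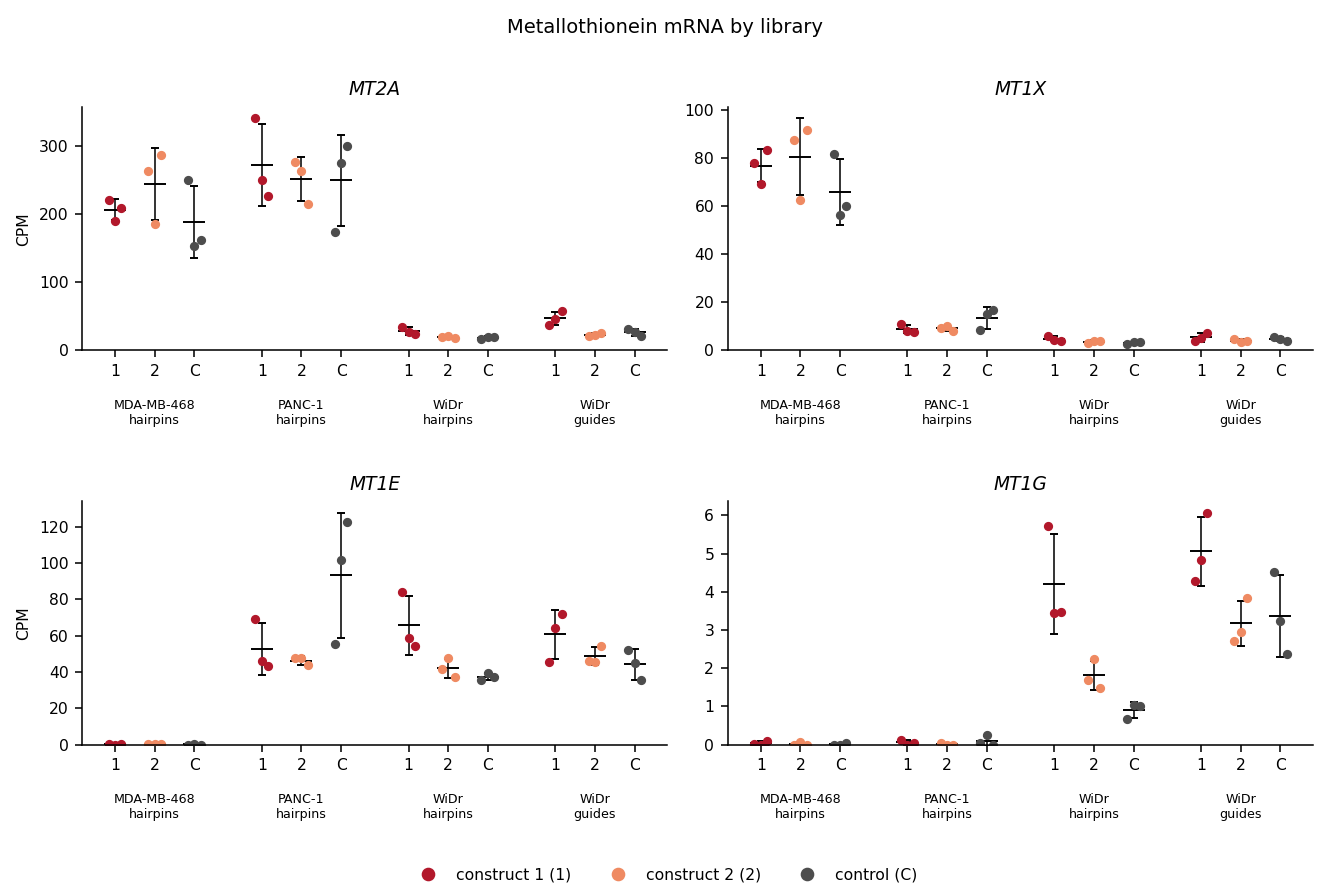
Level in CPM of MT2A, MT1X, MT1E and MT1G in each of the 36 libraries (points), with the mean and SD of 3 libraries per group (bars), construct 1, construct 2 and control (C) from left to right. MT1G and MT1E stand higher with WiDr hairpin 1 than in the WiDr hairpin controls. MT1E stands lower with either PANC-1 hairpin label than in PANC-1 control replicates 2 and 3, and PANC-1 control replicate 1 lies below those 2 for MT2A, MT1X and MT1E.

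In PANC-1, 4 of 11 importers tested rose and 1 fell with hairpin 1, and 3 rose and 1 fell in the libraries labelled hairpin 2. With both hairpin labels SLC39A7, SLC39A10, SLC39A13 and MT1M rose and SLC39A11 and MT1E fell. Of 26 members tested, 5 rose and 3 fell with hairpin 1 (30.8%), beside 30.2% of 15128 genes called (16.2% higher and 14% lower), and 5 rose and 2 fell in the libraries labelled hairpin 2 (26.9%), beside 33.4% (16.7% higher and 16.7% lower). The share among members was near that of all genes. With both labels 4 members rose and 2 fell, beside 12.7% and 11.1% of all genes.

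SLC39A10 had 57.2, 71.3 and 80.1 CPM with hairpin 1, 74.5, 72.7 and 85.7 CPM in the libraries labelled hairpin 2, and 48.8, 32.1 and 33.6 CPM in control libraries. All 6 libraries with a hairpin label were above the 3 controls, of which replicate 1 was highest (log2 fold changes 0.86 (SE 0.179, adjusted p = 0.00648) and 1.02 (SE 0.180, adjusted p = 0.00270)). SLC39A7 (chromosome 6, 33200445 to 33204439) releases zinc from the endoplasmic reticulum, and had 189, 171 and 166 CPM with hairpin 1, 179, 185 and 187 CPM in the libraries labelled hairpin 2, and 128, 140.004 and 141 CPM in control libraries. The groups did not overlap (log2 fold changes 0.36 (SE 0.0815, adjusted p = 0.00928) and 0.43 (SE 0.0815, adjusted p = 0.00384)).

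SLC39A13, a transporter of the Golgi and secretory vesicles (chromosome 11, 47407132 to 47416501), had 41.4, 45.7 and 40.3 CPM with hairpin 1, 41.7, 43.3 and 36.2 CPM in the libraries labelled hairpin 2, and 32.5, 33.5 and 33.8 CPM in control libraries (log2 fold changes 0.35 (SE 0.0929, adjusted p = 0.0193) and 0.28 (SE 0.0930, adjusted p = 0.0443)). The 3 controls were lowest and close together. SLC39A11, another internal transporter, went the other way, with 40.3, 39.1 and 36.5 CPM with hairpin 1, 40.3, 41.2 and 40.9 CPM in the libraries labelled hairpin 2, and 47.7, 51.3 and 49.5 CPM in control libraries (log2 fold changes -0.36 (SE 0.0756, adjusted p = 0.00696) and -0.28 (SE 0.0755, adjusted p = 0.0202)). Its 3 control libraries were the highest of the 9.

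MT2A in PANC-1 had 340.5, 249.7 and 227 CPM with hairpin 1, 277, 263 and 214 CPM in the libraries labelled hairpin 2, and 174, 274 and 299.8 CPM in control libraries, and control replicate 1 was the lowest of all 9 (log2 fold changes 0.13 (SE 0.218, adjusted p = 0.701) and 0.011 (SE 0.218, adjusted p = 0.974)). MT1E (chromosome 16, 56625475 to 56627112) had 69.1, 46.2 and 43.1 CPM with hairpin 1, 47.6, 47.6 and 43.8 CPM in the libraries labelled hairpin 2, and 55.7, 102 and 123 CPM in control libraries (log2 fold changes -0.82 (SE 0.271, adjusted p = 0.0466) and -1.01 (SE 0.272, adjusted p = 0.0199)). Control replicates 2 and 3 were above every library with a hairpin label, while control replicate 1 lay among them. MT1X had 10.7, 8.10 and 7.55 CPM with hairpin 1, 9.38, 10.1 and 8.10 CPM in the libraries labelled hairpin 2, and 8.39, 15.1 and 16.7 CPM in control libraries and did not pass (log2 fold changes -0.60 (SE 0.243, adjusted p = 0.0888) and -0.54 (SE 0.243, adjusted p = 0.115)).

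As a share of all metallothionein counts in a library, MT1E made up 12.7% ± 0.496 with hairpin 1, 12.1% ± 0.797 in the libraries labelled hairpin 2 and 21.8% ± 1.81 in controls (SD, n = 3 each), and the control range of 19.9% to 23.5% lay above the others at 11.5% to 13.3%. MT1A made up 3.17% ± 0.159, 4.43% ± 0.135 and 2.18% ± 0.0396 in the same order, and MT1L 15.2% ± 0.442, 15.2% ± 0.764 and 12.7% ± 0.522. MT2A took 66.0% ± 0.668, 65.3% ± 1.51 and 59.6% ± 2.43. A share shows unequal change among the genes, not which of them changed. MT1M, a low gene with a mean under 1 CPM named after its values were seen, had 1.73, 1.52 and 1.24 CPM with hairpin 1, 0.909, 1.07 and 0.833 CPM in the libraries labelled hairpin 2, and 0.308, 0.239 and 0.561 CPM in control libraries (log2 fold changes 2.02 (SE 0.303, adjusted p = 0.00119) and 1.34 (SE 0.313, adjusted p = 0.0109)). All its control values were below the others. Of genes that passed with 1 label, MT1A rose in the libraries labelled hairpin 2, with 19.0, 17.6 and 14.5 CPM, against 6.21, 9.90 and 11.3 CPM in control libraries (log2 fold change 0.90, SE 0.218, adjusted p = 0.0127), and no control value reached them. SLC39A8 rose with hairpin 1 at a low level, with 0.944, 1.15 and 0.802 CPM, against 0.565, 0.359 and 0.384 CPM (log2 fold change 1.13, SE 0.280, adjusted p = 0.0145). SLC30A7, which loads the secretory pathway with zinc, fell with hairpin 1, with 17.7, 17.0 and 19.7 CPM, against 23.7, 23.6 and 23.3 CPM (log2 fold change -0.38, SE 0.0856, adjusted p = 0.00986). Summed over MT1 genes the log2 fold changes were -0.29 (SE 0.254, adjusted p = 0.417) and -0.38 (SE 0.254, adjusted p = 0.278).

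MTF1 had 21.8, 30.5 and 31.2 CPM with hairpin 1, 35.7, 33.6 and 33.4 CPM in the libraries labelled hairpin 2, and 38.5, 25.1 and 27.2 CPM in control libraries, with control replicate 1 the highest of the 9 (log2 fold changes -0.12 (SE 0.180, adjusted p = 0.643) and 0.18 (SE 0.180, adjusted p = 0.475)). SLC30A1 had 17.2, 29.04 and 27.5 CPM with hairpin 1, 27.97, 26.6 and 28.8 CPM in the libraries labelled hairpin 2, and 24.6, 13.2 and 15.4 CPM in control libraries, and control replicate 1 was again well above the other controls (log2 fold changes 0.47 (SE 0.248, adjusted p = 0.182) and 0.65 (SE 0.248, adjusted p = 0.0720)). Without control replicate 1 in the fit, MTF1 was at 0.067 (adjusted p = 0.714) with hairpin 1, with its sign changed, and passed in the libraries labelled hairpin 2 at 0.37 (adjusted p = 0.0452). MT2A then changed sign with both labels, to -0.092 (adjusted p = 0.677) and -0.21 (adjusted p = 0.302). SLC30A1 passed at 0.77 (adjusted p = 0.00801) with hairpin 1 and 0.94 (adjusted p = 0.00222) in the libraries labelled hairpin 2. SLC30A4, an exporter into vesicles named after its values were seen, then passed at 1.23 (adjusted p = 0.00455) and 1.53 (adjusted p = 0.00109). The metallothionein MT1X then passed at -0.87 (adjusted p = 0.00156) and -0.81 (adjusted p = 0.00184), and MT1E reached -1.10 (adjusted p = 8.47e-04) and -1.30 (adjusted p = 2.72e-04). SLC39A13 no longer passed in the libraries labelled hairpin 2, at 0.24 (adjusted p = 0.0629). The number of members called was then 14 and 13 of 26. Over all genes, 6797 and 7958 were called in that fit, against 4566 and 5053 with every library kept. That fit kept hairpin 1 replicate 1, which was also shifted by transcript length.

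With 1 library left out, the fewest members called in PANC-1 were 5 with hairpin 1, without control replicate 2 or hairpin 1 replicate 2, and 3 in the libraries labelled hairpin 2, without their replicate 1. Over all genes, the calls were also fewest without hairpin 1 replicate 2 (2851 with hairpin 1) and without labelled hairpin 2 replicate 1 (3116 with that label). With hairpin 1, the MT1E call was lost without any of 7 of the 9 libraries (all but control replicate 1 and hairpin 1 replicate 1), and the SLC39A13 and SLC39A8 calls without control replicate 2, control replicate 3 or hairpin 1 replicate 2. In the libraries labelled hairpin 2, the SLC39A13 call was lost without any of 8 (all but their replicate 3), the MT1E and SLC39A11 calls without control replicate 2 or 3 or any of their own 3, and the MT1A call without their replicate 1. The calls of SLC39A7, SLC39A10 and MT1M with both labels, and of SLC39A11 and SLC30A7 with hairpin 1, held without any 1 library. Between the 2 labels no member passed (0 of 26 with edgeR and with DESeq2, 3 at an unadjusted p under 0.05), beside 0.106% of all genes (0.0264% higher and 0.0793% lower). The summed leukocyte markers were 132 to 142 CPM with hairpin 1, 165 to 176 CPM in the libraries labelled hairpin 2 and 74.4 to 89.5 CPM in controls, nearly all from CD68, with PTPRC and CD3E at or near 0. The summed fibroblast markers were 40.5 to 45.6, 17.1 to 20.2 and 11.3 to 21.0 CPM in the same order, nearly all from COL1A1, with DCN and LUM at or near 0. The summed epithelial markers were 4652 to 5724, 3990.4 to 4252 and 6203 to 8520 CPM, and of the 3 genes 2 fell with hairpin 1, and 3 in those labelled hairpin 2. The summed markers of the PANC-1 line were 6278 to 7025, 5525 to 5861 and 3615 to 4495 CPM, and of their 4 genes 1 rose and 1 fell with each label. The epithelial sums lay below the controls and the line's sums above them, without overlap. The part of these markers in the results was not tested.

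**Figure D3:**
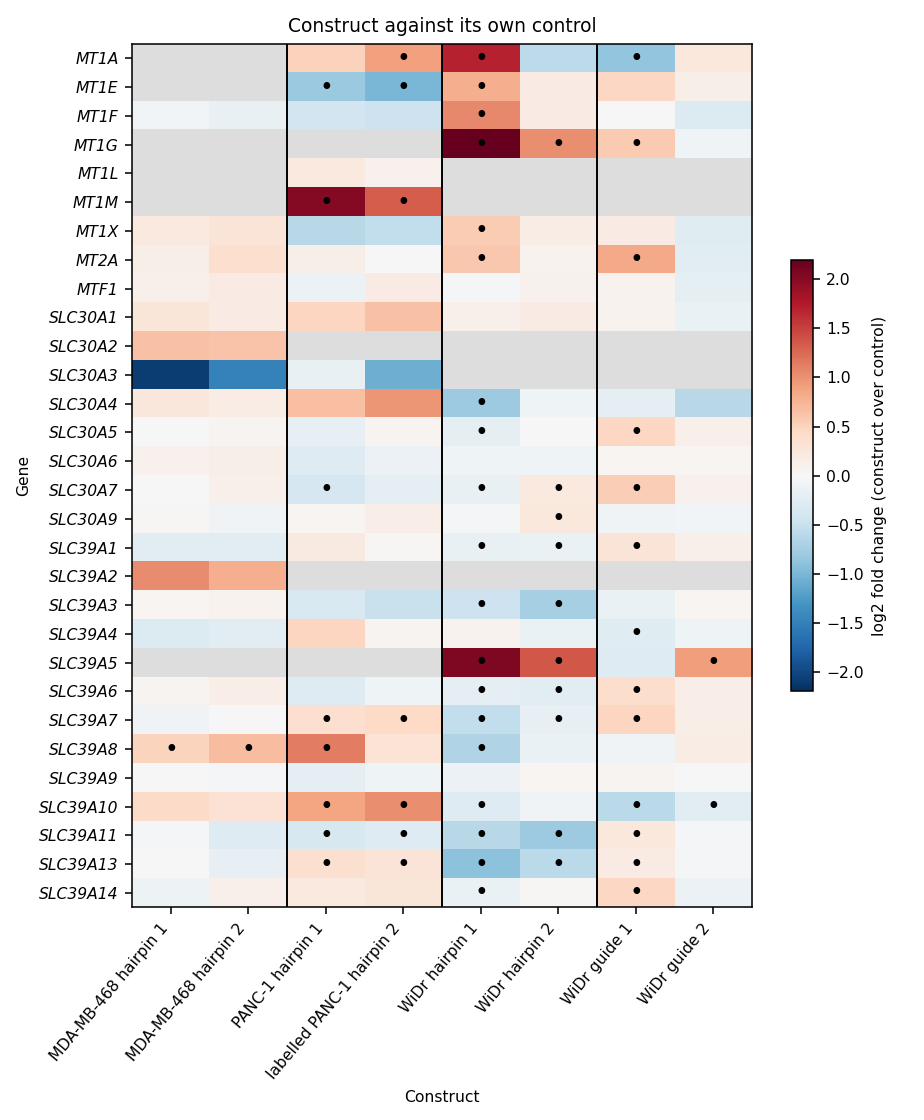
Log2 fold change (colour, construct over control) of the 30 members tested in at least 1 experiment, by construct, with a dot where the edgeR adjusted p was below 0.05 and grey where the gene was too low to test. In the WiDr hairpin 1 column the 6 metallothioneins tested are red, and MT1L and MT1M are grey. SLC39A7 and SLC39A13 are blue with both WiDr hairpins and red with both PANC-1 hairpin labels and WiDr guide 1.

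Of the 8 comparisons with a control, WiDr hairpin 1 gave the most members called. With hairpin 1 all 6 metallothioneins tested rose, and with both hairpins 6 zinc importers fell, namely SLC39A1, SLC39A3, SLC39A6, SLC39A7, SLC39A11 and SLC39A13. Of 25 members tested, 7 rose and 12 fell with hairpin 1 (76%), beside 48% of 14317 genes called (24.1% higher and 23.9% lower), and 4 rose and 6 fell with hairpin 2 (40%), beside 44.7% (22.2% higher and 22.5% lower). With both hairpins 2 members rose, 6 fell and 1 changed in opposite directions, beside 12.3%, 12.9% and 2.28% of all genes. By family, 9 importers fell and 1 rose of 12 with hairpin 1, and 6 fell and 1 rose with hairpin 2, while of 6 exporters 3 fell with hairpin 1 and 2 rose with hairpin 2.

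MT1G, a metallothionein that epithelial tumours often silence (chromosome 16, 56666731 to 56668065), had 5.72, 3.44 and 3.46 CPM with hairpin 1, 1.70, 2.24 and 1.49 CPM with hairpin 2, and 0.661, 1.04 and 1.02 CPM in control libraries. The 3 groups did not overlap and hairpin 1 was highest (log2 fold changes 2.197 (SE 0.252, adjusted p = 3.89e-06) and 1.02 (SE 0.266, adjusted p = 0.00573)). MT2A had 34.2, 26.4 and 23.6 CPM with hairpin 1, 18.8, 21.6 and 18.1 CPM with hairpin 2, and 16.5, 20.1 and 18.8 CPM in control libraries. Hairpin 1 stood above all controls, and hairpin 2 overlapped them (log2 fold changes 0.59 (SE 0.127, adjusted p = 0.00198) and 0.083 (SE 0.128, adjusted p = 0.632)).

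MT1X had 5.94, 4.37 and 3.94 CPM with hairpin 1, 2.84, 3.84 and 3.93 CPM with hairpin 2, and 2.80, 3.40 and 3.34 CPM in control libraries, and its hairpin 1 libraries were above all controls (log2 fold changes 0.57 (SE 0.172, adjusted p = 0.0129) and 0.16 (SE 0.175, adjusted p = 0.497)). MT1E had 84.1, 58.6 and 54.4 CPM with hairpin 1, against 35.3, 39.5 and 37.4 CPM in control libraries (log2 fold change 0.81, SE 0.165, adjusted p = 0.00381). MT1A had 1.83, 1.09 and 0.853 CPM with hairpin 1, against 0.409, 0.375 and 0.349 CPM in control libraries (log2 fold change 1.70, SE 0.329, adjusted p = 5.02e-04), and MT1F had 1.43, 0.964 and 0.778 CPM with hairpin 1, against 0.661, 0.548 and 0.286 CPM in control libraries (log2 fold change 1.05, SE 0.362, adjusted p = 0.0249). For MT1E, MT1A and MT1F, hairpin 1 stood above the controls without overlap. Summed over MT1 genes the level rose with hairpin 1, at 0.86 (SE 0.169, adjusted p = 0.00366), and with hairpin 2 the value was 0.19 (SE 0.171, adjusted p = 0.407). Hairpin 2 was lower than hairpin 1 for the MT1 sum, at -0.67 (SE 0.168, adjusted p = 0.0138), for MT1G, at -1.18 (SE 0.228, adjusted p = 7.60e-04), and for MT2A, at -0.51 (SE 0.125, adjusted p = 0.00608).

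In every metallothionein that rose, hairpin 1 replicate 1 was the highest of the 9 libraries. Its genes with short transcripts had a median log2 difference of 0.27 from the other 2 hairpin 1 libraries. Without it, the MT1X and MT1F calls were lost. MT1X also lost its call without control replicate 1, and MT1F without control replicate 2 or 3. MT2A, MT1G, MT1E and MT1A kept theirs without any 1 library.

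The zinc sensor and the exporter it controls did not pass with either hairpin. MTF1 had 30.7, 35.3 and 34.8 CPM with hairpin 1, 36.5, 35.0 and 38.9 CPM with hairpin 2, and 34.9, 33.9 and 34.7 CPM in control libraries (log2 fold changes -0.034 (SE 0.0669, adjusted p = 0.703) and 0.091 (SE 0.0665, adjusted p = 0.283)). SLC30A1 had 13.7, 15.7 and 17.3 CPM with hairpin 1, 16.6, 15.8 and 17.0 CPM with hairpin 2, and 15.3, 14.1 and 14.2 CPM in control libraries (log2 fold changes 0.10 (SE 0.0850, adjusted p = 0.328) and 0.17 (SE 0.0844, adjusted p = 0.106)). For both genes hairpin 1 overlapped the controls and the 3 hairpin 2 libraries were above them. SLC39A10 had 27.7, 25.4 and 29.5 CPM with hairpin 1, 30.6, 34.0 and 31.1 CPM with hairpin 2, and 35.1, 31.3 and 34.5 CPM in control libraries, and it fell with hairpin 1 and did not pass with hairpin 2 (log2 fold changes -0.29 (SE 0.0731, adjusted p = 0.00413) and -0.074 (SE 0.0723, adjusted p = 0.435)). The difference between the hairpins for SLC39A10 also passed, at 0.21 (SE 0.0731, adjusted p = 0.0272).

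Among the importers that fell, SLC39A13 had 15.4, 15.8 and 15.8 CPM with hairpin 1, 18.7, 19.5 and 20.3 CPM with hairpin 2, and 27.7, 31.5 and 29.2 CPM in control libraries. The groups were fully apart, with hairpin 1 lowest (log2 fold changes -0.91 (SE 0.0691, adjusted p = 4.13e-08) and -0.60 (SE 0.0676, adjusted p = 3.71e-06)). SLC39A11 had 11.2, 9.32 and 10.8 CPM with hairpin 1, 8.92, 9.21 and 9.38 CPM with hairpin 2, and 15.7, 16.7 and 15.4 CPM in control libraries, and all 6 libraries with a targeting hairpin were below the controls (log2 fold changes -0.61 (SE 0.0830, adjusted p = 1.84e-05) and -0.80 (SE 0.0836, adjusted p = 1.67e-06)). SLC39A7 had 154, 142 and 136 CPM with hairpin 1, 186, 179 and 189.7 CPM with hairpin 2, and 206, 213 and 211 CPM in control libraries, with hairpin 1 lowest and controls highest (log2 fold changes -0.54 (SE 0.0516, adjusted p = 4.58e-07) and -0.18 (SE 0.0512, adjusted p = 0.00869)).

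SLC39A3, a plasma membrane importer, had 9.97, 8.26 and 8.60 CPM with hairpin 1, 7.48, 7.80 and 6.91 CPM with hairpin 2, and 10.8, 12.6 and 13.4 CPM in control libraries, with all controls above (log2 fold changes -0.46 (SE 0.101, adjusted p = 0.00135) and -0.72 (SE 0.102, adjusted p = 3.34e-05)). SLC39A6, a plasma membrane importer of the same group as SLC39A10, had 94.9, 94.1 and 99.9 CPM with hairpin 1, 94.3, 95.0 and 90.9 CPM with hairpin 2, and 115, 106 and 109 CPM in control libraries, and its 3 controls were highest (log2 fold changes -0.19 (SE 0.0498, adjusted p = 0.00470) and -0.24 (SE 0.0498, adjusted p = 0.00118)). SLC39A1 fell least, with 131, 130.4 and 122 CPM with hairpin 1, 129, 123 and 136 CPM with hairpin 2, and 140.3, 150.2 and 140.2 CPM in control libraries (log2 fold changes -0.17 (SE 0.0530, adjusted p = 0.0147) and -0.15 (SE 0.0529, adjusted p = 0.0268)). Its controls were above every other library. The hairpin 1 call was lost without control replicate 2 or hairpin 1 replicate 3, and the hairpin 2 call without control replicate 2 or hairpin 2 replicate 1 or 2.

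SLC39A5, an importer of gut and pancreas epithelium, rose at a low level, with 1.76, 1.70 and 1.53 CPM with hairpin 1, 0.752, 1.03 and 1.31 CPM with hairpin 2, and 0.252, 0.519 and 0.413 CPM in control libraries. The controls were lowest (log2 fold changes 2.05 (SE 0.291, adjusted p = 2.94e-05) and 1.36 (SE 0.304, adjusted p = 0.00187)). SLC30A7 went opposite ways with the hairpins, with 62.1, 61.4 and 63.6 CPM with hairpin 1, 77.3, 85.1 and 79.7 CPM with hairpin 2, and 73.7, 66.3 and 69.0 CPM in control libraries (log2 fold changes -0.16 (SE 0.0561, adjusted p = 0.0280) and 0.21 (SE 0.0555, adjusted p = 0.00538)). Hairpin 1 was lowest and hairpin 2 highest, and the hairpin 1 call was lost without control replicate 1 or 3 or hairpin 1 replicate 2. Of genes that passed with 1 hairpin, SLC30A4 fell with hairpin 1 (log2 fold change -0.79, SE 0.317, adjusted p = 0.0492), a call lost without any of 7 of the 9 libraries, and SLC30A9 rose with hairpin 2 (log2 fold change 0.24, SE 0.05003, adjusted p = 0.00125). SLC39A8, named after its values were seen, had 13.9, 13.9 and 14.5 CPM with hairpin 1, 19.4, 19.9 and 21.1 CPM with hairpin 2, and 24.0, 21.8 and 21.1 CPM in control libraries and passed with hairpin 1 (log2 fold changes -0.66 (SE 0.0723, adjusted p = 2.07e-06) and -0.15 (SE 0.0700, adjusted p = 0.0948)).

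Hairpin 2 and hairpin 1 differed from each other in 14 of 25 members (56%), 9 higher and 5 lower with hairpin 2, beside 42.4% of all genes (20.6% higher and 21.8% lower). The summed leukocyte markers were 2333 to 2571 CPM with hairpin 1, 1656 to 1780.5 CPM with hairpin 2 and 1499 to 1527 CPM in controls, nearly all from LYZ, with PTPRC and CD3E at 0 in the controls. The summed markers of the WiDr line were 807 to 872, 646 to 677 and 449 to 500.4 CPM in the same order, and the epithelial markers 4977 to 5853, 4565 to 4637 and 4412 to 4795 CPM. Their part in the results was not tested. The counts called ranged from 14 to 19 with hairpin 1 and from 9 to 12 with hairpin 2 when 1 library was left out.

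**Figure D4:**
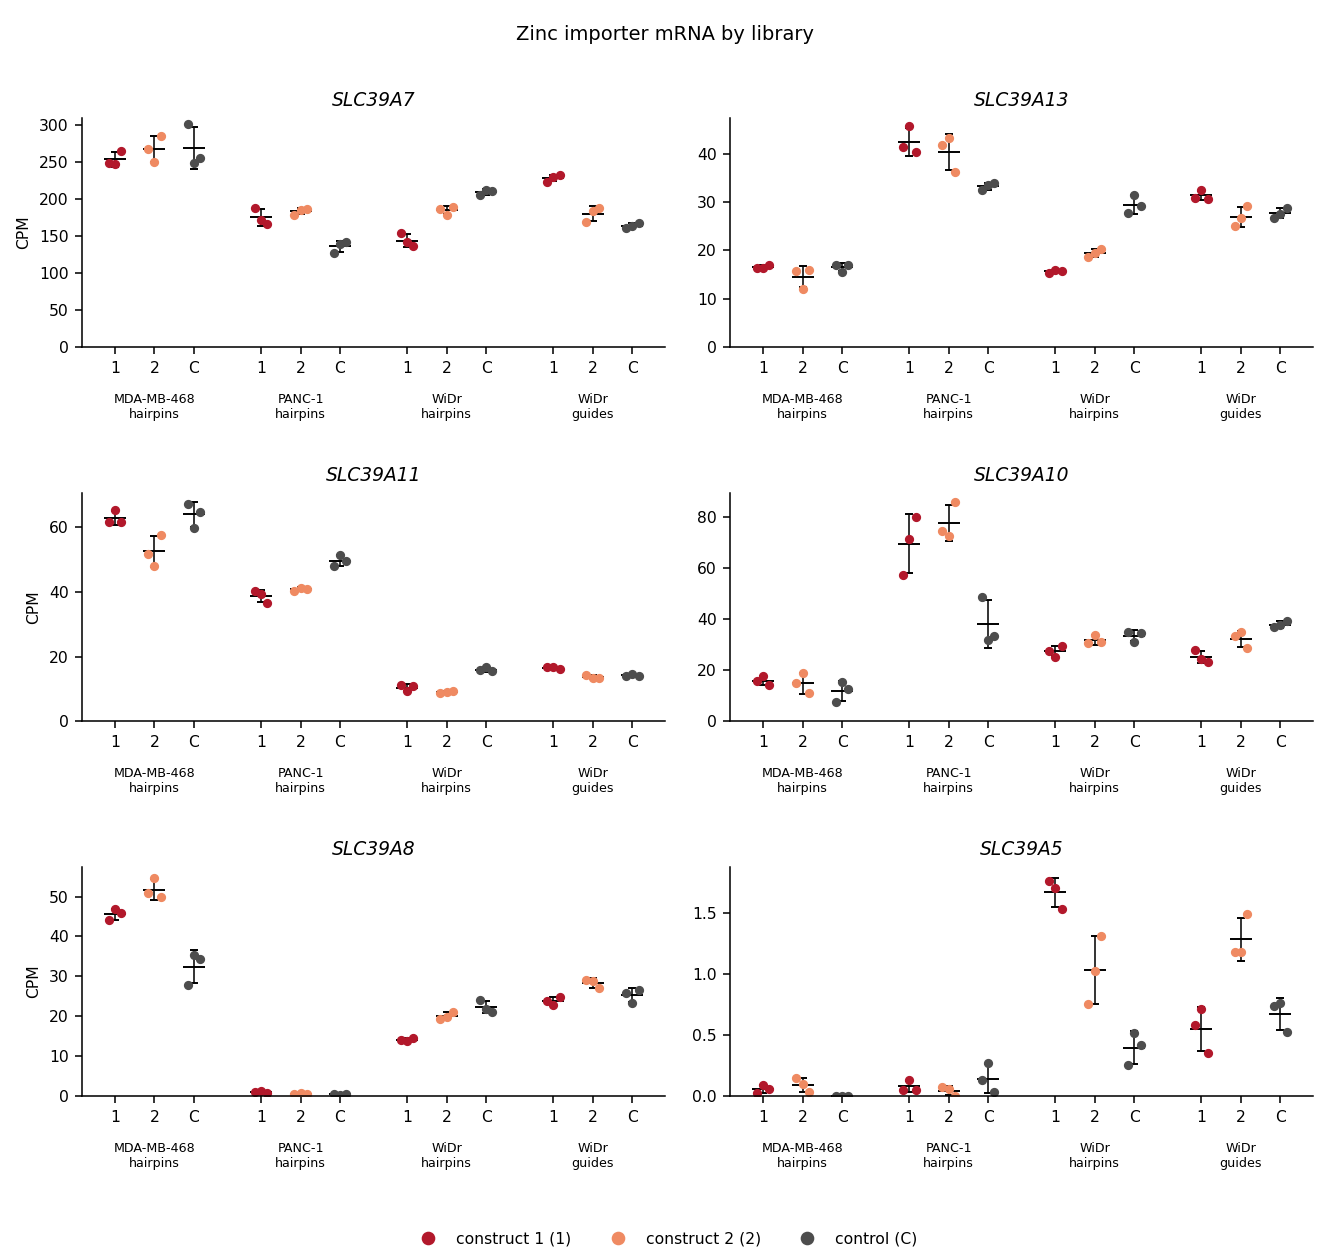
Level in CPM of 6 zinc importer genes in each of the 36 libraries (points), with the mean and SD of 3 libraries per group (bars), construct 1, construct 2 and control (C) from left to right. SLC39A7 and SLC39A13 stand below their controls with both WiDr hairpins and above them in PANC-1 and with WiDr guide 1, and SLC39A10 stands above its controls with both PANC-1 hairpin labels and below them with both WiDr guides.

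The guide experiment in the same WiDr line gave another pattern. With guide 1, 10 members rose and 3 fell of 25 (52%), beside 41.6% of 14649 genes called (21.4% higher and 20.3% lower), and with guide 2, 1 rose and 1 fell (8%), beside 25.5% (14.1% higher and 11.3% lower). With both guides 0 members rose and 1 fell, beside 8.48% and 6.26% of all genes. SLC39A10 was the 1 member that changed with both guides, and it fell. It had 27.8, 24.6 and 23.2 CPM with guide 1, 33.6, 34.8 and 28.9 CPM with guide 2, and 36.8, 37.6 and 39.4 CPM in control libraries. All 6 libraries with a targeting guide were below the 3 controls (log2 fold changes -0.59 (SE 0.0781, adjusted p = 1.26e-05) and -0.23 (SE 0.0771, adjusted p = 0.0409)). The guide 2 call was lost without any 1 control library or guide 2 replicate 3.

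MT2A rose with guide 1 and did not pass with guide 2, with 37.3, 45.7 and 57.1 CPM with guide 1, 20.4, 21.7 and 25.1 CPM with guide 2, and 31.0, 26.6 and 21.3 CPM in control libraries. Guide 1 stood above all controls, and guide 2 overlapped them (log2 fold changes 0.83 (SE 0.188, adjusted p = 0.00962) and -0.23 (SE 0.195, adjusted p = 0.427)). Its share of metallothionein counts was 39.02% ± 1.40 with guide 1, 27.9% ± 0.968 with guide 2 and 32.5% ± 0.296 in controls, and these 3 ranges did not overlap. MT1X had 3.71, 5.12 and 7.16 CPM with guide 1, 4.51, 3.23 and 3.99 CPM with guide 2, and 5.36, 4.81 and 3.98 CPM in control libraries, with overlap (log2 fold changes 0.18 (SE 0.209, adjusted p = 0.523) and -0.27 (SE 0.216, adjusted p = 0.389)).

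Of the other metallothioneins, MT1G had 4.29, 4.82 and 6.06 CPM with guide 1, against 4.51, 3.22 and 2.38 CPM in control libraries (log2 fold change 0.58, SE 0.209, adjusted p = 0.0395), and MT1A had 0.306, 0.480 and 0.355 CPM with guide 1, against 1.03, 0.474 and 0.620 CPM in control libraries (log2 fold change -0.87, SE 0.333, adjusted p = 0.0452). MT1G thus rose and MT1A fell by the test, although the groups overlapped for both genes. Leaving out 1 library ended the MT1G call for 5 of the 9 libraries and the MT1A call for 6 of them. Summed over MT1 genes the log2 fold changes were 0.42 (SE 0.208, adjusted p = 0.155) with guide 1 and 0.08 (SE 0.210, adjusted p = 0.814) with guide 2.

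MTF1 had 37.9, 34.4 and 34.4 CPM with guide 1, 32.6, 29.1 and 26.8 CPM with guide 2, and 32.7, 33.7 and 35.2 CPM in control libraries (log2 fold changes 0.069 (SE 0.0716, adjusted p = 0.468) and -0.20 (SE 0.0725, adjusted p = 0.0557)). Guide 2 was lowest, and it was below guide 1 by a test between the guides, at -0.27 (SE 0.0720, adjusted p = 0.00843). SLC30A1 had 21.5, 22.6 and 20.7 CPM with guide 1, 20.9, 15.4 and 18.9 CPM with guide 2, and 19.5, 20.1 and 21.7 CPM in control libraries, with overlap (log2 fold changes 0.081 (SE 0.0911, adjusted p = 0.508) and -0.15 (SE 0.0924, adjusted p = 0.239)). Of 6 exporters tested, 2 rose with guide 1. SLC30A7, which carries zinc into the Golgi, had 76.6, 72.7 and 71.1 CPM with guide 1, 52.4, 57.4 and 51.7 CPM with guide 2, and 49.4, 51.8 and 49.8 CPM in control libraries, and guide 1 stood above all other libraries (log2 fold changes 0.55 (SE 0.0562, adjusted p = 9.07e-07) and 0.097 (SE 0.0568, adjusted p = 0.226)). SLC30A5, which acts in the early secretory pathway and was named after its values were seen, had 98.8, 99.6 and 99.7 CPM with guide 1, 77.8, 82.7 and 73.6 CPM with guide 2, and 71.2, 74.7 and 71.1 CPM in control libraries (log2 fold changes 0.46 (SE 0.0524, adjusted p = 2.80e-06) and 0.11 (SE 0.0527, adjusted p = 0.142)). SLC30A6, the partner of SLC30A5, did not pass with guide 1 (log2 fold change 0.041, SE 0.0706, adjusted p = 0.672).

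The importers that rose with guide 1 were named after their values were seen. SLC39A14, a transporter of zinc, iron and manganese, had 166, 160.3 and 159.8 CPM with guide 1, 113, 106 and 106 CPM with guide 2, and 120.0, 117 and 118 CPM in control libraries (log2 fold changes 0.45 (SE 0.0472, adjusted p = 1.09e-06) and -0.13 (SE 0.0475, adjusted p = 0.0525)). Guide 1 was apart from both other groups. SLC39A7 had 223, 230.3 and 232 CPM with guide 1, 169, 184 and 188 CPM with guide 2, and 161, 164 and 168 CPM in control libraries (log2 fold changes 0.48 (SE 0.0491, adjusted p = 9.05e-07) and 0.14 (SE 0.0492, adjusted p = 0.0521)). SLC39A6, SLC39A1, SLC39A11 and SLC39A13 rose by 0.38, 0.28, 0.23 and 0.18 on the log2 scale, with adjusted p of 3.95e-05, 4.89e-04, 0.0156 and 0.0381. SLC39A4, the intestinal zinc importer, fell (log2 fold change -0.27, SE 0.0946, adjusted p = 0.0314). The SLC39A4 call was lost without any 1 control library or guide 1 replicate 1 or 2, the SLC39A13 call without control replicate 1 or 2 or any 1 guide 1 library, and the SLC39A11 call without control replicate 3 or guide 1 replicate 2. With guide 2, SLC39A5 rose, with 1.18, 1.18 and 1.49 CPM with guide 2, against 0.733, 0.759 and 0.522 CPM in control libraries (log2 fold change 0.93, SE 0.279, adjusted p = 0.0221), a call lost without control replicate 3 or guide 2 replicate 3.

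Guide 2 and guide 1 differed in 15 of 25 members (60%), 4 higher and 11 lower with guide 2, beside 34.4% of all genes (17.4% higher and 17.1% lower). By the other label field guide 1 had 5 libraries and guide 2 had 1, so guide 2 then had no replicates. Calls of members changed in that grouping, and their counts are not given. SLC39A5 with guide 2 was then at -0.91 on the log2 scale, against 0.93 by the titles. With guide 1, MT2A was then at 0.19 against 0.83 by the titles, SLC30A7 at 0.31 against 0.55 and SLC39A10 at -0.34 against -0.59. With guide 2, SLC39A10 was instead larger in size, at -0.71 against -0.23. The guide results thus rest on the titles. The number called with guide 2 was 0 without control replicate 3, 1 without control replicate 1 or 2, and 7 without guide 2 replicate 1. The summed leukocyte markers were 1418 to 1542 CPM with guide 1, 1978 to 2155 CPM with guide 2 and 1932 to 2027 CPM in controls, nearly all from LYZ. In the same order the markers of the WiDr line were 428 to 464, 494 to 575 and 363 to 378 CPM, and the epithelial markers 4792 to 5018, 5375 to 6229.6 and 5131 to 5424 CPM. Their part in the results was not tested.

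**Figure D5:**
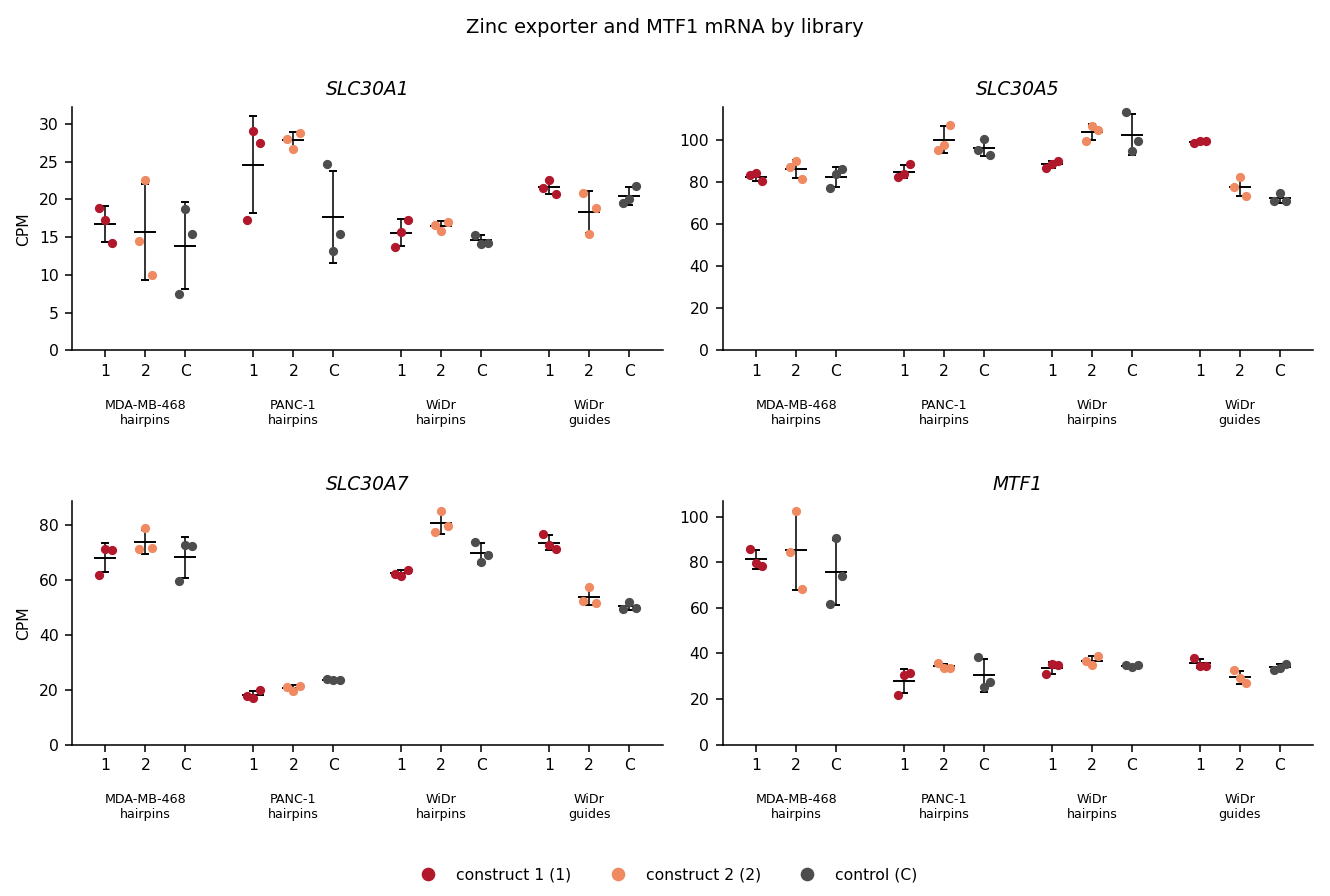
Level in CPM of the exporters SLC30A1, SLC30A5 and SLC30A7 and of MTF1 in each of the 36 libraries (points), with the mean and SD of 3 libraries per group (bars), construct 1, construct 2 and control (C) from left to right. SLC30A5 and SLC30A7 stand apart with WiDr guide 1, while in MDA-MB-468 SLC30A1 and MTF1 overlap between each hairpin and the controls. PANC-1 control replicate 1 lies above the other controls for SLC30A1 and MTF1 and close to them for SLC30A5 and SLC30A7. MDA-MB-468 control replicate 1 is the lowest control of that line for each gene.

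Differences between experiments were tested as interactions, each on the mean of both constructs against its own control. In the same WiDr line, the effect of guides and the effect of hairpins differed for 13 of 26 members (50%), 10 with a higher and 3 with a lower effect of guides, beside 41.6% of all genes (22% higher and 19.6% lower). The importers took most of these, 8 with a higher and 1 with a lower effect of guides. SLC39A13 differed by 0.82 (SE 0.0799, adjusted p = 2.32e-08), SLC39A11 by 0.79 (SE 0.0883, adjusted p = 1.86e-07) and SLC39A7 by 0.67 (SE 0.0595, adjusted p = 6.08e-09), in each case guides minus hairpins. MT1G differed by -1.37 (SE 0.332, adjusted p = 0.00255) and SLC39A5 by -1.39 (SE 0.373, adjusted p = 0.00451). MT2A, at -0.045 (SE 0.221, adjusted p = 0.892), SLC39A10, at -0.23 (SE 0.0950, adjusted p = 0.0526), and the MT1 sum, at -0.28 (SE 0.249, adjusted p = 0.409), did not pass.

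Between the hairpin experiments, WiDr and PANC-1 differed in 12 of 28 members (42.9%), beside 37.2% of all genes (16.2% higher and 20.9% lower). SLC39A13 differed by -1.12 (SE 0.0933, adjusted p = 1.27e-07), SLC39A10 by -1.17 (SE 0.185, adjusted p = 1.10e-04) and SLC39A7 by -0.81 (SE 0.0750, adjusted p = 4.09e-07), in each case WiDr minus PANC-1, and MT1E by 1.35 (SE 0.282, adjusted p = 0.00126). SLC39A7 and SLC39A13 rose with both labels in PANC-1 and fell with both hairpins in WiDr. WiDr and MDA-MB-468 differed in 5 of 28 (17.9%), beside 18.2% of all genes (8.96% higher and 9.27% lower), and the 5 were SLC39A3, SLC39A7, SLC39A8, SLC39A11 and SLC39A13. SLC39A8 had the largest of these 5 differences, at -0.97 (SE 0.106, adjusted p = 1.13e-05). PANC-1 and MDA-MB-468 differed in 4 of 28 (14.3%), beside 23.9% of all genes (11.7% higher and 12.1% lower), namely MT1X, SLC30A7, SLC39A7 and SLC39A13, with SLC39A7 at 0.42 (SE 0.102, adjusted p = 0.00693). The WiDr and PANC-1 comparison gave 16 members without PANC-1 control replicate 1, where 7734 of all genes were called, against 6044 with every library kept. Pairs of these tests share libraries.

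Other genes of zinc and copper handling were followed in a list of 18 outside the 2 families, of which 17 were tested in each experiment. For MDA-MB-468, 0 passed with both hairpins. In PANC-1, 1 rose and 2 fell with both labels. With both WiDr hairpins 1 rose and 1 fell, and with both guides 2 rose. Of all genes, 0.744%, 12.7%, 12.3% and 8.48% rose and 0.567%, 11.1%, 12.9% and 6.26% fell with both constructs in the 4 experiments in that order. The list's median log2 fold changes for constructs 1 and 2 were -0.024 and -0.0019 (MDA-MB-468), -0.22 and -0.24 (PANC-1), 0.050 and 0.014 (WiDr hairpins) and -0.10 and 0.023 (WiDr guides), beside medians of all genes from -0.015 to 0.021. ZNF658, a zinc finger protein of zinc-dependent repression, rose in PANC-1 (0.70 and 0.90), and the zinc-sensing receptor GPR39 (-0.41 and -0.44) and the copper transporter SLC31A2 (-0.45 and -0.54) fell. In WiDr with hairpins the copper pump ATP7A rose (0.27 and 0.27) and the copper chaperone CCS fell (-0.42 and -0.29), and with guides the copper importer SLC31A1 rose (0.38 and 0.18) with CBWD1 (0.33 and 0.20). The adjusted p of these genes lay between 5.60e-06 and 0.0404 (edgeR). CBWD1 has close paralogs, and its counts are uncertain.

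Genes of metal and oxidative stress share inducers with the metallothioneins. Of 10 tested, 0 passed with both MDA-MB-468 hairpins, 2 rose with both labels in PANC-1 (HMOX1, 0.67 and 0.87, and SLC7A11, 0.57 and 0.60), 4 fell with both WiDr hairpins and 2 rose with both guides, beside 12.7% of all genes higher in PANC-1, 12.9% lower with WiDr hairpins and 8.48% higher with guides. With guide 1 alone 8 of the 10 rose and 0 fell, beside 21.4% of all genes higher, and with guide 2 alone 2 rose and 0 fell, beside 14.1%. With WiDr hairpin 1 alone 1 rose and 6 fell, and with hairpin 2 alone 0 rose and 6 fell, beside 23.9% and 22.5% of all genes lower. The effects of guides and hairpins differed for 9 of the 10, each with a higher effect of guides, beside 22% of all genes. The list's median log2 fold changes for constructs 1 and 2 were -0.044 and 0.12 (MDA-MB-468), 0.12 and 0.14 (PANC-1), -0.22 and -0.25 (WiDr hairpins) and 0.398 and 0.080 (WiDr guides). With guide 1 MT2A and MT1G rose as well, while MT1A fell and the MT1 sum did not pass (edgeR, adjusted p = 0.155). With WiDr hairpin 1, where 6 of the 10 fell, all 6 metallothioneins tested rose. The part of this list in the metallothionein results was not tested. The 4 that fell were HSPA1A (-0.71 and -1.01), HSPA1B, DNAJB1 and SRXN1, which are heat shock genes apart from SRXN1, an antioxidant enzyme, with adjusted p of at most 6.40e-05. HSPA1A and HSPA1B are near-identical genes, and the split of reads between them is uncertain. GCLM, a subunit of the glutathione-making enzyme, passed in opposite directions (0.18 and -0.16). HMOX1, the heme oxygenase, rose with both guides (0.37 and 0.63).

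Of the glucocorticoid response list, 1 gene of 10 (SGK1) rose with both MDA-MB-468 hairpins, beside 0.744% of all genes, and 6 of 10 rose with both PANC-1 labels, beside 12.7%. With both WiDr hairpins 4 of 9 rose and 2 fell, beside 12.3% and 12.9%, and with both guides 4 of 9 rose, beside 8.48%. SGK1, a kinase induced by glucocorticoids, had 1.16 and 1.52 in MDA-MB-468 and fell with both WiDr hairpins (-0.39 and -0.73). The median log2 fold changes of the glucocorticoid list for constructs 1 and 2 were 0.23 and 0.15 (MDA-MB-468), 0.54 and 0.67 (PANC-1), 0.0085 and 0.23 (WiDr hairpins) and 0.38 and 0.14 (WiDr guides).

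The 6 members tested in no experiment were MT1B, MT1H, MT3, SLC30A8, SLC30A10 and SLC39A12. Their highest count in any library was 1, 17, 2, 21, 7 and 7 in that order. MT1H, next to MT1G in the cluster, had 9, 8 and 15 counts with WiDr hairpin 1, 3, 10 and 3 with hairpin 2, and 3, 2 and 2 in the hairpin controls, and 7, 17 and 17 with guide 1, 4, 5 and 4 with guide 2, and 8, 3 and 3 in the guide controls. SLC30A8 is the zinc transporter of insulin granules, and its 21 counts were in PANC-1 hairpin 1 replicate 2. The highest counts of SLC30A10 and SLC39A12, 7 each, were in the same library.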

How the data were processed

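RNA-seq libraries of 4 experiments (36 libraries in 12 groups of 3) were used. The authors deposited RSEM expected counts per gene symbol, made with Bowtie2 2.1.0 and RSEM 1.2.15 on hg38 per the submitters' processing notes. The sources used here give neither annotation nor strand setting, so overlapping and antisense genes cannot be told apart. Counts were rounded to whole numbers. Each experiment was fitted over its 3 arms with edgeR 4.0.16 in R 4.3.3 (filterByExpr, TMM, robust quasi-likelihood test), with Benjamini-Hochberg adjustment over all genes tested and a threshold of 0.05. The standard error is the fold change over the root of the F statistic. Differences between experiments were tested as interactions over 18 libraries. Levels per kilobase use the longest GENCODE transcript, and promoters come from RefSeq (GRCh38.p14).

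The members and lists were chosen with earlier results of these data known. Genes named in each experiment were at most 12 that passed with both constructs at a mean of at least 1 CPM, at most 4 per comparison that passed with 1 construct, and MT2A, MT1X, MTF1, SLC30A1 and SLC39A10 throughout; others are named as chosen after their values were seen. The design text calls replicates biological, and it does not say whether they are separate cultures, so the p-values measure the spread between these libraries, which may be technical. Alternatives were DESeq2 1.42.0, other scaling and filters, a replicate block, other sets of libraries and each library left out. The test was checked on simulated data. The levels of the targeted gene are not reported here.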

Additional observations from a re-analysis of the deposited data

Results flagged for a closer look

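The effect of the constructs differed between experiments for some of the members tested, by the interaction test (edgeR, adjusted p below 0.05). The guides and the hairpins differed in the same WiDr line for 13 of 26 members (50%), beside 41.6% of all genes. PANC-1 and MDA-MB-468 hairpins differed for 4 of 28 (14.3%), beside 23.9%. WiDr and MDA-MB-468 hairpins differed for 5 of 28 (17.9%), beside 18.2%, and WiDr and PANC-1 hairpins for 12 of 28 (42.9%), beside 37.2%. SLC39A13 and SLC39A7 passed with both WiDr hairpins and both PANC-1 hairpin labels, in opposite directions in the lines. Their differences were -1.12 and -0.81 on the log2 scale (WiDr minus PANC-1). The PANC-1 side of these is a mean that includes the libraries labelled hairpin 2, whose target check went against that label. The SLC39A13 call in the PANC-1 libraries labelled hairpin 2 was lost without any of 8 of the 9 libraries, while the SLC39A7 calls held. Line and experiment cannot be told apart in the comparisons between lines, and hairpins and guides were separate experiments with their own controls.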

How the results depend on the processing

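Counts of members called moved by over 1.5 times as follows. In MDA-MB-468, DESeq2 gave 3 with each hairpin, the fit with 2 arms 0 with each, and the fit over all 36 libraries 3 with each and 1 between the hairpins. In PANC-1, the fit over all libraries gave 15 with hairpin 1, 13 in the libraries labelled hairpin 2 and 3 between them. Summing the MT1 genes gave 4 in the libraries labelled hairpin 2. There MT1A, MT1E and MT1M, each called singly, were replaced by their sum with the other MT1 genes, which did not pass. In WiDr, the fit over all libraries gave 8 between the hairpins and 0 with guide 2, and DESeq2, RLE scaling and no filter gave 4 with guide 2. Calls with the guides also moved when grouped by the other label field. Guide 2 then had 1 library, so their counts are not given, and SLC39A5 with guide 2 reversed to -0.91. The PANC-1 and MDA-MB-468 interaction gave 9 in the fit over all libraries. The cause of the moves other than that of the MT1 sum was not tested.

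With the replicate number as a block, 4 members were called in the libraries labelled hairpin 2 of PANC-1 and 6 with guide 2, and 9 of 80 calls or values of named genes lost their call, among them MT1E with both PANC-1 labels and SLC39A11 and SLC39A13 in the libraries labelled hairpin 2. Same-numbered libraries correlated in their deviations at -0.32 to 0.79 in MDA-MB-468 (others -0.77 to 0.73) and at -0.81 to 0.27 in PANC-1 (others -0.49 to 0.66). They did so at -0.18 to 0.066 with WiDr hairpins (others -0.15 to 0.18) and at -0.10 to 0.25 with guides (others -0.19 to 0.12). The ranges overlapped in each experiment, and the numbers were not taken as pairs.

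With each library left out in turn, counts with hairpin 1, with hairpin 2 and between them ranged over 0 to 2, 1 to 1 and 0 to 0 in MDA-MB-468, over 5 to 14, 3 to 13 and 0 to 0 in PANC-1, and over 14 to 19, 9 to 12 and 11 to 18 in WiDr. For the guides they ranged over 9 to 14, 0 to 7 and 12 to 16. Interactions ranged over 12 to 14 (WiDr guides and hairpins), 1 to 4 (PANC-1 and MDA-MB-468), 4 to 7 (WiDr and MDA-MB-468) and 9 to 16 (WiDr and PANC-1). The count of 4 for PANC-1 and MDA-MB-468 fell to 1 or 2 without any of 9 libraries: PANC-1 control replicates 2 and 3, hairpin 1 replicate 2 and labelled hairpin 2 replicates 1 and 2, and MDA-MB-468 control replicate 3 and hairpin 1 replicates 1 to 3. Of 720 values of named genes with a library left out, 634 kept their side of the threshold, 75 lost a call and 11 gained one. The sign changed in 0 where either fit passed. Sign changes between fits that both did not pass were counted among the 634. Leaving out ribosomal RNA genes changed no call of a named gene. Genes under 1 CPM rest on few counts, and differences in them may not be detectable at this depth.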
